A study of Mus musculus with 23 samples.

Results

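The 10 genes described here belong to the circadian clock of the liver: Clock, Npas2, Per1, Per2, Per3, Cry1, Nr1d1, Nr1d2, Dbp and Ciart. They were taken by gene name from the deposited count tables, and all 10 were present in both tables, among 24434 genes listed for males and 24940 for females. The study sequenced bulk liver RNA from 23 mice, all B100 animals fed WD for 16 weeks and killed in the fed state. The control group (B100-Control) held 5 males, replicates 1, 2, 3, 4 and 6, and 6 females. The LKO group (B100 LKO), in which Cpt1a was ablated in the liver per the series title, held 6 males and 6 females. The labels give no promoter or Cre line behind the ablation, no age and no hour of collection. Clock transcripts follow the hour, so the members bear on whether livers of the groups could have been taken at different phases of the day; with no hour given, whether collection time differed between groups was not tested.

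The clock is a feedback loop that runs in nearly every cell. CLOCK, or its relative NPAS2, pairs with BMAL1 and switches on genes with E-box motifs, among them the Per and Cry genes, the Nr1d genes (Rev-erb alpha and beta), Dbp and Ciart. PER and CRY proteins then block that pair, and REV-ERB proteins repress Bmal1, Npas2, Clock and Cry1, so that Npas2 and Cry1 transcripts peak at a different time of day from Nr1d1 and Dbp. In mouse liver, feeding also shifts the phase of the loop, and Per1 and Per2 respond to hormonal signals besides.

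The libraries held 14224665 to 19626662 counts, with 18232 to 20343 genes having at least 1 count. Cpt1a, the mitochondrial enzyme targeted in LKO, had 302.6 to 430.3 CPM (counts scaled to library size) in control males against 42.2 to 96.7 in LKO males, and 284.6 to 430.0 in control females against 61.7 to 86.2 in LKO females. It fell by 2.50 on the log2 scale in males (adjusted p = 9.99e-05) and fell by 2.35 in females (adjusted p = 3.69e-08) by edgeR's quasi-likelihood test. Control male 4 had the fewest counts and the fewest detected genes. Of 6 hepatocyte markers listed, 5 were found by symbol, and no gene was found under the symbol Tf. The 5 found summed to 51132 to 73355 CPM in control males and 49136 to 65420 in LKO males. In control and LKO females they summed to 74587 to 87141 and 49709 to 80592. Means of 4 of these 5 were lower in LKO males and of 5 of 5 in LKO females. Means of 4 of 4 stellate and 4 of 4 cholangiocyte markers were higher in LKO females. In LKO males, 3 of 4 stellate markers had higher means and 3 of 4 cholangiocyte markers had lower means. EdgeR called 0 hepatocyte, stellate or cholangiocyte markers in either sex. At an unadjusted p under 0.05 by edgeR were 2 hepatocyte and 2 cholangiocyte markers in males, all lower in LKO. In females 1 hepatocyte marker was at that threshold, lower in LKO, with 2 stellate markers and 1 cholangiocyte marker, higher in LKO. DESeq2 called 0 markers of these types in either sex. Of all genes, 12.5% in males and 15.6% in females had an unadjusted p under 0.05 by edgeR. No marker of any cell type listed was at 0 in every liver. Kupffer cell markers (5 of 5 in the tables) summed to 265.7 to 554.6 CPM in control males and 448.6 to 654.4 in LKO males, and to 462.6 to 881.9 and 521.7 to 882.2 in control and LKO females. The part of these markers in the results was not tested. Replicates are numbered animals, so p-values measure the spread between these livers.

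RefSeq promoter windows of GRCm38.p6, from 250 bases before to 50 after a transcript start, were found for 9 of the 10 members, in 12 windows. Per2 had none. The E-box CACGTG, its own reverse complement, occurred in 3 of the 12 member windows and in 7.15% of all 32851 windows. These 3 are printed because CLOCK and its partner bind this motif; capitals mark the E-box, and each sequence is written 5′ to 3′ along the gene. The Per1 window lies at chr11:69098699-69098998 on the plus strand, Cry1 at chr10:85185005-85185304 on the minus strand and Ciart at chr3:95882179-95882478 on the minus strand. The match began at -166 from the start in Per1, at -60 in Cry1, and at -116, -58 and -44 in Ciart.
Per1: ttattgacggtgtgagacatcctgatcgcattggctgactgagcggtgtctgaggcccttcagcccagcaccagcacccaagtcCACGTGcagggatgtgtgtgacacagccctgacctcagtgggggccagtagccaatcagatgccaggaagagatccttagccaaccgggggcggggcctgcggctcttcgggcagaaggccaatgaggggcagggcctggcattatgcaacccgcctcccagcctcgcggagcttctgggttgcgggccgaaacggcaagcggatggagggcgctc
Cry1: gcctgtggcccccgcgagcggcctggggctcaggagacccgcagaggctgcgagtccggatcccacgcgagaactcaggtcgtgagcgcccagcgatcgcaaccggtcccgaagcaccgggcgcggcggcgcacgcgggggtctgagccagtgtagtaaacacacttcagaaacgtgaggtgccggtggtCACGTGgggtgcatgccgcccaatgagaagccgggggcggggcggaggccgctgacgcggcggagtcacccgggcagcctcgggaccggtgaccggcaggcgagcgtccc
Ciart: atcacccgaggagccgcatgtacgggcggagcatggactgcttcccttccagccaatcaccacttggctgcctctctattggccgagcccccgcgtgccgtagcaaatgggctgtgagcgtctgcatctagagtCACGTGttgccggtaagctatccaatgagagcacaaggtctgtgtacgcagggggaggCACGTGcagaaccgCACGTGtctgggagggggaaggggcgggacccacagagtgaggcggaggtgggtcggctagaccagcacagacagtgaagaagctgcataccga
A D-box, the motif bound by DBP (TTATGTAA or TTACGTAA, on either strand), occurred only in the Per3 window, at -205 and -158, and in 1.06% of all windows. The element TAGGTCA, read on either strand and bound by REV-ERB proteins, matched 0 of the 12 member windows and 2.61% of all. These are letters in a window and say nothing of binding.

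Levels were compared between genes only as FPKM, which divides by gene length. Dbp was the most abundant member in every group, at 72.9 ± 22.9 FPKM (SD, n = 5) in control males and 82.1 ± 23.6 FPKM (SD, n = 6) in control females. Nr1d1 followed at 40.1 ± 5.52 FPKM in control males and 33.1 ± 14.5 in control females, then Per1, Nr1d2, Ciart, Per2 and Per3. In LKO females, Per1 at 17.8 ± 2.72 FPKM and Nr1d1 at 17.6 ± 9.19 did not differ beyond their spread. Clock and Cry1 stood at 0.97 ± 0.30 and 0.90 ± 0.082 FPKM in control males. The Cry1 mean was above that of Clock in the other 3 groups, at 1.40 ± 0.63 FPKM against 0.97 ± 0.20 in LKO males, 1.39 ± 0.72 against 0.79 ± 0.17 in control females and 2.05 ± 1.15 against 0.78 ± 0.17 in LKO females, a gap within the SD of Cry1 in the first and second of these. Npas2 was lowest in all groups, at 0.22 ± 0.064 FPKM in control males and 0.045 ± 0.042 in LKO females. The tables of males and females were normalized separately, so FPKM is not compared between sexes.

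By edgeR, fitted within each sex with genotype as the only term, no member was called different between LKO and control in either sex. In males, 0 of 10 members passed an adjusted p of 0.05 in edgeR's quasi-likelihood test, where 0.00724% of 13805 genes passed. At an unadjusted p under 0.05, 5 of 10 passed against 12.5% of all genes, 4 with higher means in LKO (5.24% of genes) and 1 with a lower mean (7.22%). That count was 3 with limma on FPKM and 1 with all 23 livers in 1 fit. With 1 liver left out it was 1 without LKO male 4, 2 without LKO male 3, control male 1 or control male 3, 3 without LKO male 1, and 4 or 5 otherwise. DESeq2 called 1 member, Per2, and 0.826% of genes; it gave no adjusted p for Npas2, Cry1 and Ciart. In females, 0 of the 9 members tested passed by edgeR, where 1.42% of 13684 genes passed. At an unadjusted p under 0.05, 1 passed, Nr1d1, against 15.6% of genes; its mean was lower in LKO, as for 7.33% of genes, while 8.3% were higher. The female count was 0 without control female 2, 2 without control female 3 or LKO female 1, and 3 without control female 4. DESeq2 called 0 members and 4.09% of genes. The median log2 difference of members was 0.078 in males and -0.058 in females, beside 0.010 and 0.0051 over all genes. No member's CPM ranges were free of overlap between LKO and control in either sex, where 1.77% of genes in males and 1.59% in females were. Whole-liver RNA was measured, so fewer cells of a type and less RNA per cell cannot be told apart. The plot of genotype differences gives each member's interval.

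**Figure D1:**
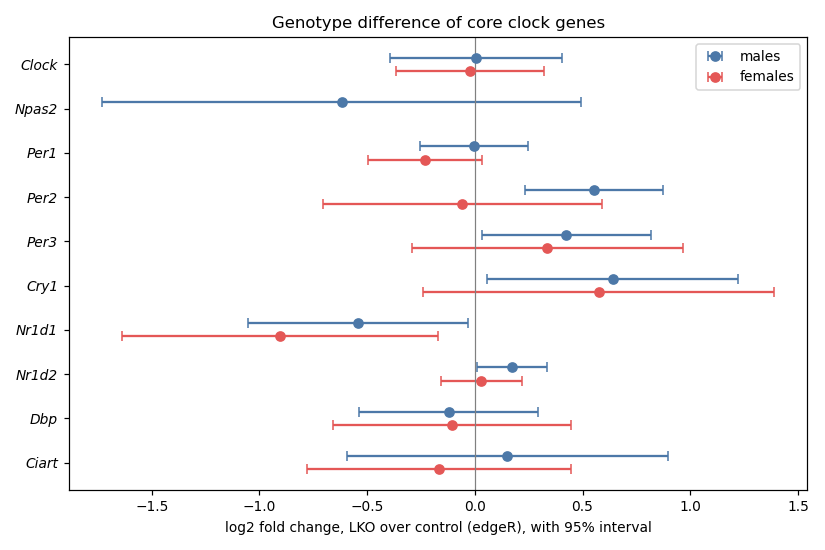
Log2 fold change of LKO over control for each member in males (blue) and females (red) from edgeR, with 95% intervals. In males the intervals of Per2, Per3, Cry1, Nr1d1 and Nr1d2 exclude 0 before adjustment, in females only that of Nr1d1, and Npas2 was not tested in females.

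Clock encodes the DNA-binding partner of BMAL1 and lies at chr5:76357715-76452639 on the minus strand; gene positions here and in what follows are those of the deposited tables (mm39 per the submitters' processing notes). Its counts were 179, 227, 205, 253 and 176 in control males and 162 to 260 (median 229) in LKO males, 133 to 221 in control females and 140 to 281 in LKO females. The groups overlapped throughout, and control male 4 held the highest CPM of Clock, 20.4. Ube2n-ps1, with 5 to 122 counts, overlaps Clock on the same strand. The log2 difference was 0.0052 in males (95% interval -0.40 to 0.41) and -0.024 in females (-0.37 to 0.32). Npas2, which can stand in for Clock (chr1:39232812-39402317, plus strand), was near the limit of these libraries. Control males had 22, 11, 18, 17 and 16 counts of Npas2 and LKO males 0 to 23 (median 11), a log2 difference of -0.62 with a standard error (SE) of 0.51 and adjusted p = 0.667 by edgeR, and of -0.36 without LKO male 4. Control females had 1 to 21 counts of Npas2 (median 9) and LKO females 0 to 10 (median 3). Too few counts kept Npas2 out of the female test; with no count filter the difference was -1.51 and adjusted p = 0.378 by edgeR. The low Npas2 counts overlapped between groups in both sexes.

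Per1, Per2 and Per3 encode the PERIOD proteins, which restrain CLOCK and BMAL1. Per1 lies at chr11:68986043-69000786 on the plus strand, Per2 at chr1:91343704-91387046 and Per3 at chr4:151088109-151129122, both on the minus strand. Per2 had 244, 384, 308, 159 and 246 counts in control males and 425, 344, 493, 368, 339 and 441 in LKO males 1 to 6. Only control male 2 stood within the LKO range; the means were 16.8 ± 3.96 CPM (SD, n = 5) and 24.6 ± 3.65 (n = 6). The log2 difference was 0.55 (SE 0.15), with adjusted p = 0.250 by edgeR's quasi-likelihood test. DESeq2 gave the same difference with adjusted p = 0.0440, and the authors' deposited table gives 0.55 with an adjusted p of 0.0478, so the Per2 call depended on the test. Without control male 4, which had the lowest Per2, the edgeR difference was 0.47. In females, Per2 spread widely within both groups, from 222 to 790 counts (median 461.5) in controls and 260 to 724 (median 544) in LKO, and the log2 difference was -0.058 (95% interval -0.71 to 0.59).

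Per3 had 189, 272, 242, 81 and 244 counts in control males and 229 to 322 (median 279.5) in LKO males. Control male 4 was lowest, and controls 2, 3 and 6 lay within the LKO range. The log2 difference was 0.42 (SE 0.18, adjusted p = 0.366 by edgeR), and 0.27 without control male 4, so 1 liver moved this value by over 1.5 times. Per3 ran from 179 to 648 counts (median 390.5) in control females and 268 to 712 (median 612.5) in LKO females, with a log2 difference of 0.34 (SE 0.29). Single livers moved this value, to 0.19 without control female 5, 0.22 without control female 1 and 0.53 without control female 4. LKO female 6, at 268 counts, lay below the other LKO females, which had 481 or more. Per1 stayed within narrower bounds: 1108 to 1552 counts in control males and 1197 to 1677 in LKO males, 1449 to 2512 in control females and 1529 to 1871 in LKO females. Its log2 difference was -0.0025 in males (95% interval -0.25 to 0.25) and -0.23 in females (-0.50 to 0.034), and its groups overlapped in both sexes. Per3 lies within the span of Camta1 on the same strand, so shared reads cannot be told apart by strand.

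Cry1 encodes a cryptochrome, the repressor that acts with the PERIOD proteins (chr10:84967564-85020928, minus strand). Control males held 45, 55, 48, 42 and 50 counts of Cry1, and LKO males 51, 51, 144, 99, 70 and 52. LKO males 3 and 4 stood apart at 8.42 and 6.31 CPM, while the other 4 LKO males lay at 4.37 CPM or less, LKO males 2 and 6 being within the range of the controls (3.06 ± 0.25 CPM, SD, n = 5). In males Cry1 thus differed by 0.64 on the log2 scale (SE 0.27, adjusted p = 0.362 by edgeR), and by 0.41 without LKO male 3. Control females had 69, 59, 86, 141, 52 and 33 counts of Cry1 and LKO females 70, 69, 117, 236, 203 and 51. High and low livers occurred in both groups, and the log2 difference was 0.57 with a 95% interval of -0.24 to 1.39. It was 0.86 without control female 4, and 0.37 without LKO female 4 or LKO female 5.

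Nr1d1, or Rev-erb alpha, is a nuclear receptor that represses Bmal1 and Cry1 (chr11:98658758-98666159, minus strand). Its counts were 1643, 2423, 2166, 1686 and 1938 in control males and 1668, 1831, 761, 740, 1533 and 1864 in LKO males. LKO males 3 and 4, the livers highest in Cry1, were lowest in Nr1d1, at 44.5 and 47.2 CPM, and the other LKO males were at 95.6 CPM or more. In males Nr1d1 differed by -0.54 on the log2 scale (SE 0.24, adjusted p = 0.374 by edgeR). In females Nr1d1 had 1708, 2956, 789, 855, 1490 and 2036 counts in controls and 1384, 968, 576, 566, 520 and 1749 in LKO. The means were 101.6 ± 44.9 CPM and 54.3 ± 28.2 CPM (SD, n = 6 each). By CPM, controls 3 and 4, at 53.3 and 53.5, lay inside the LKO range of 27.4 to 88.4. By counts, controls 1 and 5 lay inside it too. The log2 difference was -0.90 (SE 0.34, 95% interval -1.64 to -0.17), with adjusted p = 0.216 by edgeR, above the threshold. Nr1d1 overlaps Thra on the opposite strand over 1075 bases; Thra had 155 to 399 counts in the livers, and whether counting used strand is not given in the sources used here.

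Nr1d2, or Rev-erb beta, the close relative of Nr1d1 (chr14:4230569-4265642, plus strand), varied least of all members. Control males had 582, 676, 620, 498 and 748 counts of Nr1d2 and LKO males 701 to 779 (median 710.5), with a log2 difference of 0.17 (SE 0.075, adjusted p = 0.371 by edgeR). In females the ranges were 678 to 969 and 795 to 995 counts, with a log2 difference of 0.031 (95% interval -0.16 to 0.22). The groups overlapped in both sexes.

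Dbp is a transcription factor that carries clock phase to liver enzymes, and Ciart is a repressor of CLOCK and BMAL1. Dbp lies at chr7:45354512-45359627 on the plus strand and Ciart at chr3:95785815-95789563 on the minus strand, and each overlaps a gene on the opposite strand, Sphk2 (896 to 1718 counts) and C920021L13Rik (2 to 20 counts). Dbp had 3300, 4306, 3751, 1436 and 5218 counts in control males and 2763 to 4237 (median 3264) in LKO males, a log2 difference of -0.12 (95% interval -0.54 to 0.30). It ran from 2585 to 6218 counts in control females and 2489 to 5763 in LKO females, a difference of -0.11 (-0.66 to 0.45). The groups overlapped in both sexes. Ciart had 257, 175, 224, 39 and 262 counts in control males and 111 to 305 in LKO males, with a log2 difference of 0.15 (SE 0.35) that turned to -0.081 without control male 4 and to -0.025 without LKO male 1. In females Ciart had 154 to 368 and 141 to 426 counts, a difference of -0.17 (95% interval -0.78 to 0.45) that ran from -0.39 without LKO female 1 to -0.0089 without LKO female 4. Control male 4 had the lowest CPM among control males of Per2, Per3, Dbp and Ciart.

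**Figure D2:**
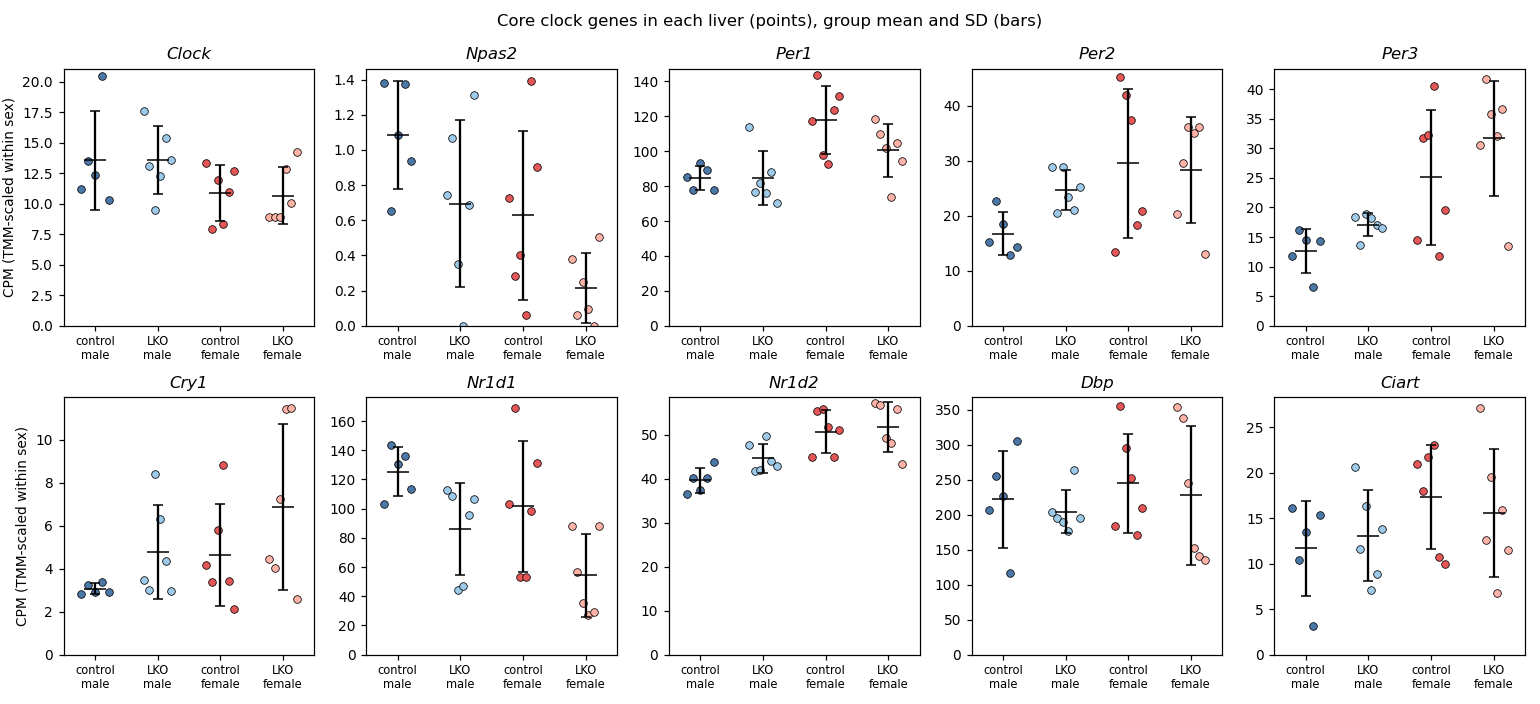
CPM of each member in every liver (points) for the 4 groups, with the group mean and SD as bars; each panel starts at 0 and has its own scale, and scaling was set within each sex. LKO and control ranges overlap for all 10 members in both sexes, and 2 of the 6 LKO males stand low in Nr1d1 and high in Cry1.

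The sexes were not shown to respond differently. In the interaction of genotype and sex, edgeR called 0 members and 0% of 14503 genes, with 0 members and 12.9% of genes at an unadjusted p under 0.05, and DESeq2 called 0 members. The largest interaction among members other than Npas2 was that of Per2, at -0.61 (SE 0.38, adjusted p = 0.512 by edgeR). Between control groups, females had higher Per1, Nr1d2 and Per3 than males: edgeR called 3 of 10 members, all higher in females, where 8.8% of 13699 genes were called higher and 18% in either direction. DESeq2 called 4, adding Per2, which had a log2 difference of 0.85 and adjusted p = 0.0616 by edgeR and 0.0222 by DESeq2. The share of all genes that DESeq2 called between controls is not given here, so its 4 cannot be set against a background. The log2 difference was 0.51 (SE 0.11, adjusted p = 0.00889) for Per1, 0.39 (SE 0.085, adjusted p = 0.00759) for Nr1d2 and 1.02 (SE 0.31, adjusted p = 0.0401) for Per3 by edgeR. The CPM ranges of Per1 and of Nr1d2 did not overlap between control males and females, as for 10.3% of genes. Per1 and Nr1d2 kept their calls in 11 of 11 fits that left out 1 liver. Per3 lost its call in 8 of 11, keeping it only without control male 2, control female 1 or control female 5. Sex coincides with the deposited table, and they cannot be told apart here.

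Several members varied widely among female livers of the same group. The within-group SD of log2 CPM exceeded that of 97.5% of tested genes for Cry1, 96.7% for Nr1d1, 95.1% for Per2, 94.7% for Per3 and 93.5% for Ciart. Dbp exceeded 89.9%, Clock 66.1%, Per1 53.0% and Nr1d2 22.6%. In males the figures were 98.3% for Npas2, 95.7% for Ciart, 83.1% for Nr1d1, 79.7% for Cry1 and 72.1% for Dbp. They were 69.9% for Per3, 66.2% for Clock, 54.2% for Per2, 37.3% for Per1 and 5.60% for Nr1d2. The Npas2 figure rests on 11 to 22 counts in control males and 0 to 23 in LKO males. This spread is a description, with no test.

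Female livers deviated from their group in opposite directions in Cry1 and Nr1d1. Correlations were computed on deviations of log2 CPM from the group mean, over 45 pairs of members in each sex, with permutation p-values from exchanges within groups. Values without 2 livers kept the deviations from the means of all livers of each group, so they can hold an offset between groups. In the 12 females, Cry1 and Nr1d1 had Pearson r = -0.89 (permutation p = 0.00085, adjusted p = 0.0283) and Spearman rho = -0.88 (adjusted p = 0.0207), with r = -0.86 without the 2 livers farthest from the median. The 5 females lowest in Nr1d1 CPM were control females 3 and 4 and LKO females 3, 4 and 5, and these held the 5 highest Cry1 CPM. In the 11 males the pair had r = -0.87 (permutation p = 0.0323, adjusted p = 0.431) and rho = -0.69 (permutation p = 0.0631). Without LKO males 3 and 4, r was -0.57, so that relation leaned on those livers. In that value the other LKO males kept an offset toward high Nr1d1 and low Cry1, since the group mean still included those 2 livers. Whether the remaining livers alone hold a relation was not tested.

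**Figure D3:**
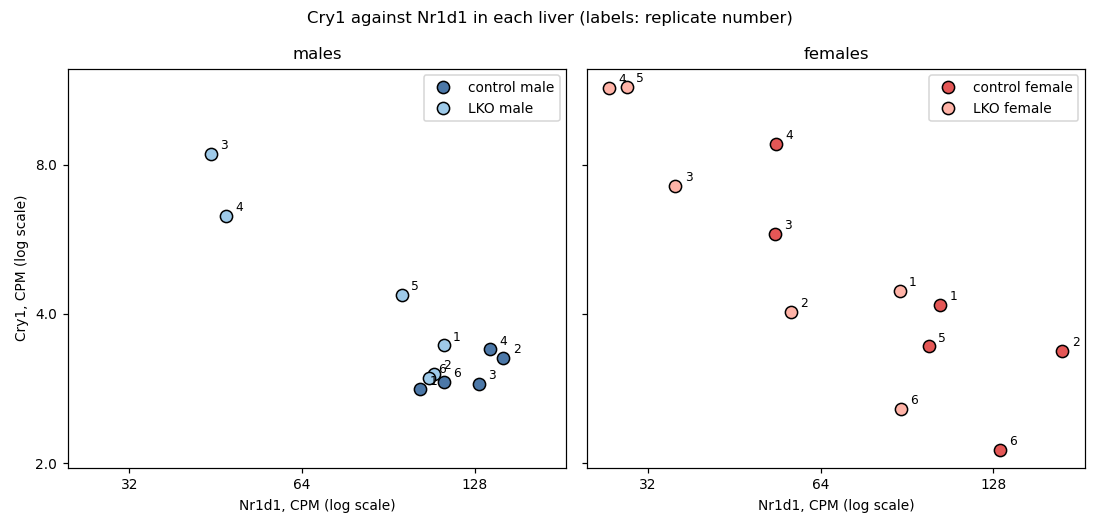
Cry1 CPM against Nr1d1 CPM in each liver (both axes logarithmic), males left and females right, with replicate numbers beside the points. LKO males 3 and 4 sit at the upper left of the male panel, and in females both genotypes run from upper left to lower right.

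In females 4 of 45 pairs passed. Per2 and Per3, whose transcripts peak at close times of day, had r = 0.89 (permutation p = 0.00253, adjusted p = 0.0312) and rho = 0.92. Per3 and Nr1d2 had r = 0.81 (adjusted permutation p = 0.0312), which fell short by rank (rho = 0.69, adjusted p = 0.116) and was r = 0.61 without the 2 farthest livers. Npas2 and Per3 had r = -0.83 (adjusted permutation p = 0.0283), resting on Npas2 counts of 0 to 21. The number of pairs called depended on single livers: 0 without LKO female 2 or control female 5, 2 without control female 1, 3 or 6, and 7 without LKO female 5. In males 0 of 45 pairs passed after adjustment, with 3 at an unadjusted permutation p under 0.05: Cry1 with Nr1d1, Per2 with Per3 (r = 0.72) and Clock with Nr1d1 (r = 0.64). By Spearman, 0 pairs passed in males and 3 in females.

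**Figure D4:**
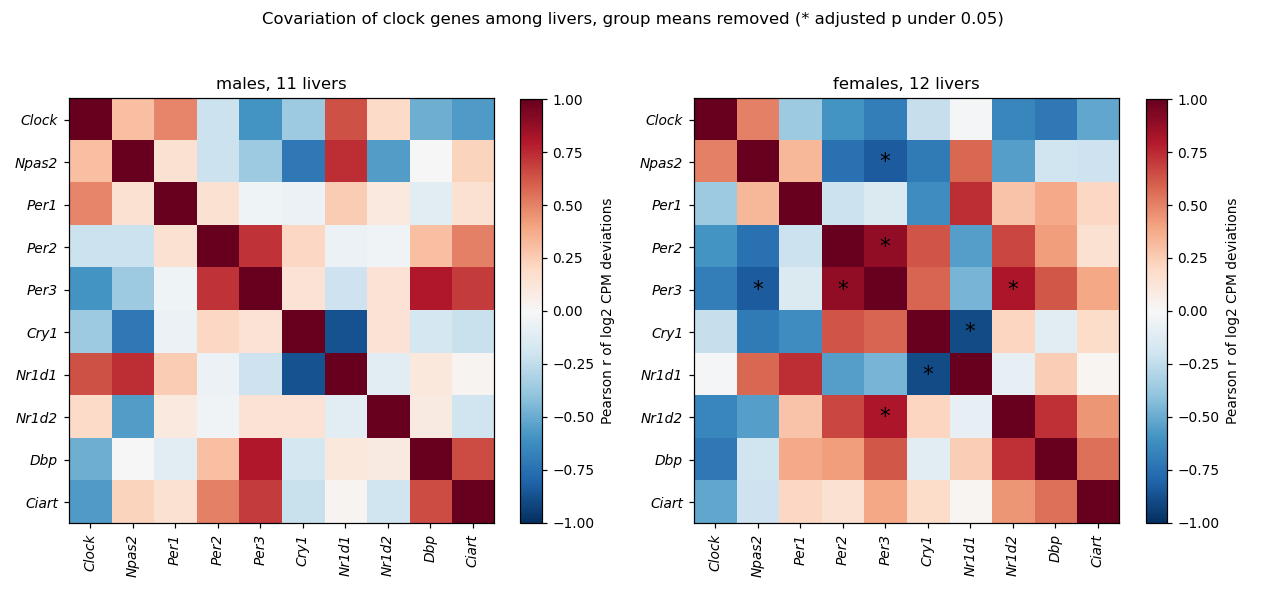
Pearson r between members over livers after removing group means, in 11 males and 12 females, coloured from -1 to 1, with asterisks at an adjusted permutation p under 0.05. Asterisks mark 4 pairs in females and 0 in males.

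The genes whose deviations were most like those of Dbp over all 23 livers, of 10578 genes compared, were Pcsk4 (r = 0.82), Cpeb1 (0.80), Slc5a6 (0.76), Rfesd (0.76) and Gm11752 (0.76). Those with the most opposite pattern were Slc45a3 (-0.86), Leo1 (-0.79), Qk (-0.78), Caprin1 (-0.78) and Sorbs2 (-0.77). Among members, Per3 ranked 36 at r = 0.66, Ciart 162 at 0.57 and Nr1d2 236 at 0.54, while Nr1d1 ranked 2665 at 0.20 and Clock 10490 at -0.61. In males and females apart, r was 0.80 and 0.62 for Per3, 0.65 and 0.55 for Ciart, and 0.093 and 0.73 for Nr1d2. The male value for Per3 was 0.38 without LKO male 2 and control male 4. That for Ciart was -0.090 without control males 4 and 6. All genes compared were read from the same libraries, and these values carry no test.

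Other clock genes did not pass between LKO and control. Of 15 listed, among them Arntl (Bmal1), edgeR called 0 in each sex, with 3 at an unadjusted p under 0.05 in males, among them Cry2, the second cryptochrome, at 0.34, and Tef, a relative of Dbp, at 0.33 (0.21 without control male 4). Females had 1, Btrc, at -0.20. Of all genes, 12.5% in males and 15.6% in females were at that threshold. DESeq2 called 0 of the 15 in each sex. Their median log2 difference was 0.058 in males and -0.078 in females. Arntl, named for its place in the loop after its values were seen, had a log2 difference of -0.45 (SE 0.41) in males and -0.50 (SE 0.36) in females. Of 11 clock output genes tested in each sex, edgeR called 0 in males and 1 in females, Rgs16, a regulator of G protein signalling: 11081 to 19330 counts in control females and 6264 to 13353 in LKO females. It fell by 0.78 on the log2 scale (SE 0.17, adjusted p = 0.0395 by edgeR; 0.000953 by DESeq2). The Rgs16 call was kept in 3 of 12 fits that left out 1 liver (control female 4, LKO female 1 or LKO female 5), and its interaction with sex was -0.47 (adjusted p = 0.472 by edgeR). The output genes at an unadjusted p under 0.05 that did not pass were Noct (0.46), Nampt (0.42, or 0.28 without LKO male 4) and Wee1 (0.43) in males, and Upp2 (-0.55) and Por (0.39) in females. DESeq2 called 0 output genes in males and, besides Rgs16, Upp2 in females (adjusted p = 0.0219). Of all genes, edgeR called 0.00724% in males and 1.42% in females, and DESeq2 0.826% and 4.09%. In males Upp2 differed by 0.44, and its interaction with sex was -0.99 (adjusted p = 0.208 by edgeR).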

How the data were processed

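RNA was isolated from 23 livers, polyadenylated RNA was taken by poly-T beads and stranded dUTP libraries were made, per the labels' protocols. Reads were aligned with HISAT2 2.0.5 and the build was mm39, per the submitters' processing notes; the counter, its annotation and its use of strand are not given in the sources used here. The authors deposited, in 1 table per sex, read counts per gene, a normalized count signal, FPKM values, gene lengths, and for LKO against control log2 fold changes and p-values with adjusted p-values. Only the counts were tested; FPKM served for levels and for 1 alternative.

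Groups came from the sample titles. Genes were kept by filterByExpr, scaled by TMM factors and tested within each sex with edgeR 4.0.16 (quasi-likelihood, R 4.3.3), p-values adjusted by Benjamini-Hochberg over every gene in the fit and a call at 0.05. The script was tested on simulated data. CPM used TMM-scaled library sizes within each sex. Correlations used log2 CPM (prior count 2) and 100000 permutations within groups. Alternatives were DESeq2 1.42.0, limma 3.58.1 on log2(FPKM + 1), other scalings and filters, all 23 livers in 1 fit, the replicate number as a block, and each liver left out. All members are named; of the other lists, up to 4 genes per list and sex at an unadjusted p under 0.05; for Dbp, the 5 most and 5 least alike genes averaging 50 counts or more. A result of the named-gene rule is not reported here. Members and lists were chosen with earlier results of these data known.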

Additional observations from a re-analysis of the deposited data

Results flagged for a closer look

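Of 40 groups of member values examined on log2 CPM, 3 had a liver whose gap to its nearest neighbour was a large part of the group's range. Chance alone would mark about 1 group in 20. Gaps and ranges here are those of log2 CPM, not of the counts printed beside them. As counts or CPM, the gaps of Ciart and Per3 below were smaller parts of the range. Ciart in control male 4, at 39 counts, had a gap of 0.728 of the range of control males. Per3 in LKO female 6, at 268 counts, had a gap of 0.723 of the range of LKO females. Dbp in LKO male 5, at 4237 counts, had a gap of 0.638 of the range of LKO males, on the high side. Without control male 4, Ciart in the remaining control males was 13.8 ± 2.54 CPM (SD, n = 4).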

How the results depend on the processing

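The alternatives changed a count or turned a direction; the cause was not tested. In males, genes called went from 1 to 2 with library size alone, with no filter or with the replicate block, 3 with at least 10 counts in every liver, 5 with all 23 livers and 114 with DESeq2, which called 1 member. In females they went from 194 to 94 with all 23 livers, 559 with DESeq2 and 334 with the replicate block, which called 1 member, Nr1d1 (-0.94, adjusted p = 0.0284 by edgeR). DESeq2 called 97 genes in the interaction. Between controls DESeq2 called 4 members, and the replicate block left 1 member, Nr1d2, and 991 genes called; Per1 then had adjusted p = 0.0799 and Per3 0.0621 by edgeR. Members at an unadjusted p under 0.05 went in males from 5 to 3 with limma, 2 with the block and 1 with all 23 livers, and in females from 1 to 2 with no filter or all 23 livers and 3 with the block; with 1 liver left out they ranged from 1 to 5 and 0 to 3. The labels tie replicate numbers to no shared animal or batch, and the numbers were not taken as pairs: deviations of livers sharing a number correlated at -0.34 to 0.40 in males and 0.0069 to 0.18 in females, positive in 6 of 6, and the best partner had the same number for 1 of 5 males and 3 of 6 females. Directions turned for values near 0: Per1 in males was 0.045 with library size alone and 0.00044 with the stricter filter; Clock in males was -0.0010 with DESeq2 and -0.021 with the block; Clock in females was 0.028 with library size alone; in the interaction, Dbp was -0.0042 with library size alone and -0.12 with the block, and Cry1 was 0.075 with the block. With 1 liver left out at a time, genes called ranged from 1 to 2 in males, 87 to 233 in females, 0 to 17 in the interaction (17 without control male 4) and 1766 to 2947 between controls, members called were 0 in every such fit of both genotype comparisons and of the interaction and 2 to 4 between controls, and pairs called ranged from 0 to 7 in females. Directions turned within these ranges: in males, Clock -0.083 to 0.20, Per1 -0.11 to 0.054, Dbp -0.28 to 0.022 and Ciart -0.081 to 0.29; in females, Clock -0.12 to 0.048, Per2 -0.21 to 0.10, Dbp -0.27 to 0.032 and Nr1d2 -0.00036 to 0.077; in the interaction, Clock -0.23 to 0.058, Per3 -0.24 to 0.10, Cry1 -0.28 to 0.23 and Dbp -0.16 to 0.17.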

Other observations

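Lists of genes that respond to temperature, glucocorticoids and feeding were examined beside the clock. An unadjusted p under 0.05 was reached by 12.5% of all genes in males and 15.6% in females by edgeR. Of 8 temperature genes, edgeR called 0 in either sex. All 8 had higher means in LKO males and 6 had lower means in LKO females, by as little as 0.034 (Cirbp, males) and -0.0078 (Hspa8, females). EdgeR called 0 of the 8 in the interaction of genotype and sex (lowest adjusted p = 0.193). All 8 interaction values were negative, and 3 had an unadjusted p under 0.05 by edgeR, beside 12.9% of all genes. In males, 2 had an unadjusted p under 0.05: Hspa1b, an inducible heat shock protein, with a log2 difference of 1.48 (adjusted p = 0.274), and Dnajb1, its co-chaperone, with 0.39. In females, 2 did: Hspa1a at -1.50 and Hspa1b at -1.18, where control female 2 held 962 Hspa1b counts (control median 123) and 152 Hspa1a counts (control median 30.5). Without that liver the differences were -0.12 for Hspa1b and -0.73 for Hspa1a. Hspa1a and Hspa1b are near-identical copies, so their split is uncertain.

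Of 6 glucocorticoid-responsive genes, edgeR called 0 in either sex. All 6 had higher means in LKO males, while in LKO females 1 had a higher mean and 5 had lower means. EdgeR called 0 of the 6 in the interaction of genotype and sex (lowest adjusted p = 0.322). All 6 interaction values were negative, and 3 had an unadjusted p under 0.05 by edgeR, beside 12.9% of all genes. Cdkn1a, a cell cycle inhibitor and the 1 higher in LKO females, had a log2 difference of 0.97 (SE 0.34) in males. In females it had 0.82 (SE 0.37), or 0.51 without LKO female 6. Tsc22d3, which encodes GILZ, had -0.75 (SE 0.23, adjusted p = 0.128 by edgeR) in females and 0.0032 in males. Of 7 feeding genes, edgeR called 0 in either sex, and 1 in males had an unadjusted p under 0.05: Pck1, the gluconeogenic enzyme, at 0.34. No feeding gene did in females. DESeq2 called 0 genes of these 3 lists in males, and in females 1 temperature gene, Hspa1a (adjusted p = 0.0471), 1 glucocorticoid gene, Tsc22d3 (adjusted p = 0.0356), and 0 feeding genes. Of all genes, DESeq2 called 0.826% in males and 4.09% in females.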
